A study of Mus musculus with 73 samples.

Results

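The contacts described here are those inside the part of the Tsix domain that lies beside the enhancer Xite and outside it, an interval of 180 kb that runs on the mouse build mm9 from the fragment X:100439219-100444194 to the fragment X:100618507-100618972. They were measured by 5C, in which fixed chromatin is cut and religated and each forward primer is read together with each reverse primer of a chosen region, so that a count stands for 2 restriction fragments caught close together. Members were chosen by the position of both fragment midpoints, and the extent of the interval was selected on contact counts of these same 10 libraries, with their comparisons known. The interval holds the fragments of 23 forward and 24 reverse primers with their midpoints inside it. These give 552 primer pairs, of 297498 that the deposited primer lists allow. Of the 552 pairs, 518 had a count in all 10 libraries, 34 had none in at least 1 library, and 551 had a mean of at least 10 counts, the minimum used for the fits. For most results the pairs were summed over 6 bins of 30 kb, numbered from the side away from Xite, which gives 21 bin pairs. Bin 1 is thus the end farthest from Xite and bin 6 the end next to it, and the side of bin 6 that faces Xite is called the border.

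The X-inactivation centre is the region of the X chromosome that controls which X is silenced in female cells. Its 2 best known genes are Xist, whose RNA coats and silences the X, and Tsix, which is transcribed through Xist in the opposite direction and holds it down. The region is folded into a pair of neighbouring topologically associating domains, stretches of chromatin whose parts contact each other more than they contact the next domain. Tsix and its enhancer Xite lie in one, and the Xist promoter lies in the other. The Tsix domain also holds Linx, a noncoding gene, Cdx4, a caudal homeobox transcription factor, Chic1, a protein with a cysteine-rich hydrophobic domain, and Tsx, a gene first found in testis.

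All cells were E14Tg2a male mouse embryonic stem cells of the strain 129/Ola, with 1 X chromosome, grown without feeder cells on gelatin with serum and leukemia inhibitory factor. There were 5 groups of 2 libraries each: XiteE-del and XiteE-inv, a deletion and an inversion named XiteE, XiteC-del and XiteC-inv, the like pair named XiteC, and the unedited wild type (WT). The edits were made with CRISPR plasmids or TALENs and checked by PCR and Sanger sequencing. The labels do not spell out the letters E and C, and 5C gives no expression by which the cell type could be checked. The labels do not say that the 2 libraries of a group came from separate clones or cultures, and both XiteE-inv libraries carry the same sample code. The p-values then measure the spread between these libraries, which may be technical.

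Libraries held 16267499 to 23928188 counts. XiteE-inv replicate 2 and WT replicate 2, which carry the code B101 in their descriptions where the other 8 carry B100, stood apart. Pairs between different chromosomes took 0.281% and 0.282% of their counts, against 1.2% to 1.76% in the B100 libraries, and X pairs under 180 kb apart took 65.7% and 63.3%, against 48.7% to 53.2%. What the code marks is not given, so results are given with all libraries and among the B100 libraries.

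The fragments just outside the interval on the Xite side bear on the labels. Summed over all their X contacts, the fragment X:100629520-100633845 had 60 and 34.8 counts scaled to a library total of 1000000 (CPM) in XiteE-del, against 2290 to 3050 CPM in the other 8 libraries. The fragment X:100618973-100623270, the first beyond the border, had 59.3 and 64.9 CPM in XiteE-del and 369 to 551 CPM in the others, and X:100623271-100629519 between these had 31.5 and 24.0 CPM in XiteE-del and 583 to 818 CPM in the others. In XiteC-del the lowest fragment was X:100636563-100639613, with 74.3 and 81.1 CPM, against 1930 to 2500 CPM in the others. Its neighbour X:100633846-100636562 was also lower, with 1640 and 1790 CPM in XiteC-del, against 2590 to 4470 CPM in the others. Just inside the border, the fragment X:100618507-100618972 had 2070 and 2100 CPM in XiteE-del and 2010 to 2530 CPM in the others, so no loss was seen on the inner side. At the other end of the interval, the first fragment inside, X:100439219-100444194, had 1970 and 2230 CPM in XiteE-del and 2110 to 2530 CPM in the others, and the nearest primer fragment outside, X:100422980-100438843, had 2010 and 2000 CPM in XiteE-del and 1810 to 2280 CPM in the others. For the inversions, the pair of the fragment X:100629520-100633845 with the last one inside the border stood at 211 and 341 CPM in XiteE-inv, against 91.1 and 123 CPM in WT. The pair of the fragments X:100636563-100639613 and X:100639614-100640516 stood at 52.2 and 93.4 CPM in XiteC-inv, against 248 and 312 CPM in WT.

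In wild-type cells the interval was not an even block. Levels per primer pair, in CPM divided by the number of pairs in the bin pair, were 129 to 207 within a bin. Between different bins the highest was that of bins 3 and 4, at 76.5 ± 8.01 CPM per primer pair (SD, n = 2 libraries). Next came bins 2 and 4, at 50.9 ± 3.37, although a whole bin lies between them, and then bins 2 and 3, at 46.3 ± 8.09. The highest levels between bins thus all lay in the stretch of bins 2 to 4. Bin 6 stood off from that stretch: its level was 38.4 ± 8.98 with its neighbour bin 5, 14.5 ± 1.86 with bin 4 and 14.6 ± 2.63 with bin 3. With the farther bins 2 and 1 it did not fall further, at 15.2 ± 3.21 and 17.6 ± 5.25. Bin 5 had a like dip, with 42.4 ± 5.42 to bin 4, 17.2 ± 5.11 to bin 3, and then 34.1 ± 6.53 to bin 2 and 32.7 ± 4.25 to bin 1. Bin 5 thus had more counts per primer pair with the far end of the interval than with bin 3, in both libraries. These levels were not corrected for how well each fragment was caught, so they do not rank how often the bins met.

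**Figure D1:**
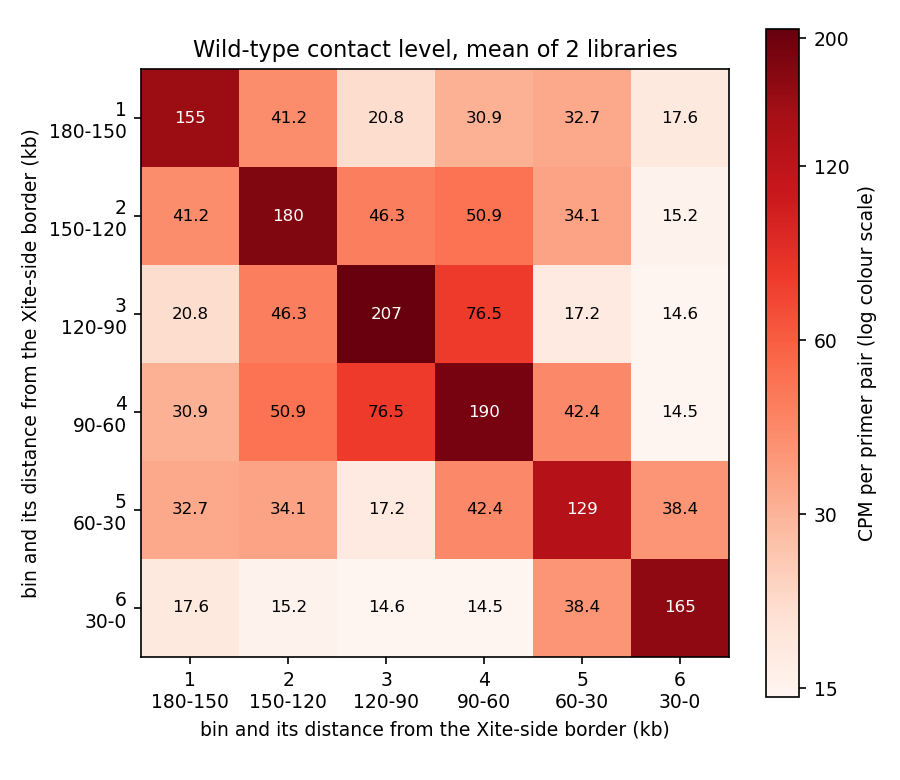
Wild-type contact level for each pair of 30 kb bins, in CPM per primer pair (mean of 2 libraries, log colour scale), with bins named by number and by distance in kb from the border next to Xite. Bins 3 and 4 reach 76.5, while bin 6 stays between 14.5 and 17.6 with bins 1 to 4.

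The strongest wild-type contacts between fragments at least 30 kb apart ran between 2 short stretches. In 4 of the 5 strongest pairs 1 end was the fragment X:100565598-100567847 of bin 5. With X:100455324-100468776, 105 kb away in bin 1, it had 119 and 179 CPM in WT. The same pair had 112 and 95.8 CPM in XiteE-del, 156 and 205 in XiteE-inv, 142 and 134 in XiteC-del and 142 and 156 in XiteC-inv. Both XiteE-del values lay below those of the other 8 libraries, while the remaining groups overlapped WT. Its partners in bin 2, X:100475372-100476461 and X:100477397-100479327, had 92.5 and 130 CPM and 90.1 and 124 CPM with it in WT. Its other strong partner in bin 1, X:100453762-100454926, 112 kb away, had 106 and 113 CPM in WT. The fifth strongest pair joined the bin 2 fragment X:100475372-100476461 to X:100557103-100560524 in bin 4, 82.9 kb away, at 84.7 and 116 CPM in WT. The wild-type means of the 5 pairs were 100 to 149 CPM, as the highest single pairs at least 30 kb apart. The mean over all interval pairs 90 to 120 kb apart was 24.7 and 32.3 CPM in WT. In the pair 112 kb apart the 2 WT libraries lay above those of XiteE-del, with 89.9 and 93.8 CPM, and XiteC-del, with 83.7 and 90.4 CPM. They also lay above XiteC-inv, with 81.2 and 75.7 CPM, while XiteE-inv spanned them, with 59.5 and 115 CPM. The 5 pairs were picked for a high WT mean, which favours WT values above the others, so this order does not show a change. In the remaining 3 pairs XiteE-del overlapped WT: the pair of X:100475372-100476461 with the bin 5 fragment, for example, had 95.4 and 112 CPM in XiteE-del against 92.5 and 130 CPM in WT.

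Contacts fall with distance along the chromosome, so levels were set beside those of all other X pairs with a count at like separations, 21493 pairs in all, the pairs of the edited fragments among them. In each of the 10 libraries and all 6 bands of separation the interval had more counts per pair than elsewhere. The interval was itself selected on contact counts of these libraries, so a higher level is no separate finding. It also lies inside the Tsix domain, while the other pairs include those that cross domain borders. The ratio of the means was 1.23 to 1.42 over the 10 libraries under 20 kb, 1.11 to 1.26 at 20 to 40 kb and 1.29 to 1.55 at 40 to 60 kb. It was 1.61 to 1.87 at 60 to 90 kb, and 2.49 to 3.12 at 90 to 120 kb, where 3 of the 4 strong pairs of bin 5 fall. At 120 to 180 kb it was 1.92 to 2.81. The per-pair level inside was in fact no lower at 90 to 120 kb than at 60 to 90 kb: in WT it was 24.7 and 32.3 CPM at the longer separation, against 21.1 and 26.7 CPM at the shorter. The XiteE-del libraries lay at 2 of the extremes, being the 2 lowest under 20 kb, at 1.24 and 1.23, and the 2 highest at 120 to 180 kb, at 2.48 and 2.81. Pairs within bin 6 and pairs of bins 1 and 6, described below, are among the pairs of these bands.

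**Figure D2:**
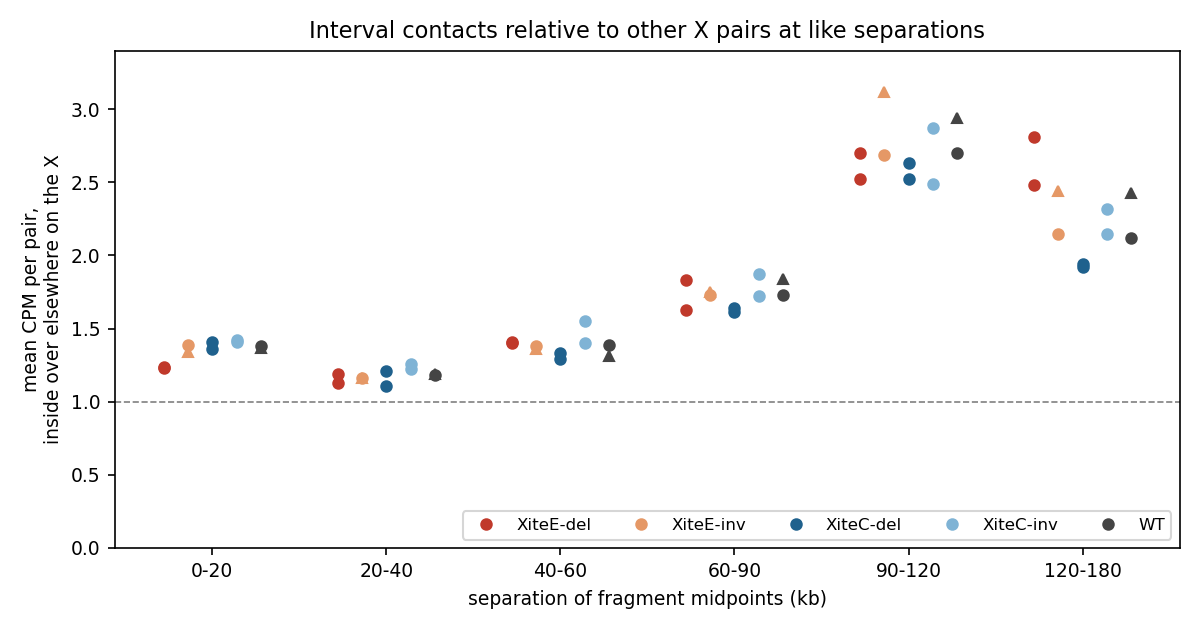
Mean CPM per primer pair inside the interval over that of all other X pairs, by separation of the fragment midpoints in kb. Each point is a library, coloured by genotype, with circles for B100 and triangles for B101; the dashed line marks equal levels. Ratios are 1.11 to 1.55 below 60 kb and 1.61 to 3.12 beyond it.

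Single fragments differed widely in their counts per pair. How well a fragment was caught and how near its partners lay were not told apart. Genotypes are therefore compared on the same fragments across libraries, while the wild-type levels of different bins carry these differences. The fragments had a median length of 1930 bp. The highest wild-type mean per pair inside the interval was that of X:100602378-100603299 in bin 6, at 114 ± 23.6 CPM, followed by X:100583703-100585257 in bin 5, at 99.6 ± 19.3 CPM (SD, n = 2). The lowest were X:100587509-100587835, at 5.07 ± 0.132 CPM, and X:100483947-100496034, at 20.1 ± 1.38 CPM. The fragment X:100587509-100587835 is also part of the 1 pair under the minimum, with at most 30 counts in any library. For a fragment of the interval, a median of 63.3% of its wild-type X counts fell inside the interval, with a range of 9.84% to 73.7%.

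As a whole the interval held 2.41% and 2.5% of the counts in XiteE-del, 2.52% and 3.5% in XiteE-inv, 2.76% and 2.54% in XiteC-del, 2.66% and 2.87% in XiteC-inv, and 2.63% and 3.37% in WT. The 2 highest values are the B101 libraries, and the 8 B100 libraries lie between 2.41% and 2.87%. Counting error is far smaller than these gaps, since 95% Wilson intervals extend at most 0.0088 percentage points to either side; reads are not independent molecules, so this covers counting error alone. As a share of the X counts under 180 kb apart, the codes came together: 4.86% and 4.99% in XiteE-del, 5.17% and 5.32% in XiteE-inv, 5.19% and 4.99% in XiteC-del, 5.29% and 5.43% in XiteC-inv, and 5.24% and 5.32% in WT. With 2 libraries a group no permutation test of 2 groups could go below a p of 1 in 3, and none was made. The XiteE-del values lay lowest, with XiteC-del replicate 2 level with the higher of them. On the log2 scale the mean share of all counts was -0.28 in XiteE-del, 0.01 in XiteE-inv, -0.18 in XiteC-del and -0.12 in XiteC-inv relative to WT. Among the B100 libraries the values were -0.09 in XiteE-del, -0.06 in XiteE-inv, 0.01 in XiteC-del and 0.07 in XiteC-inv, closer to 0 in 3 of the 4.

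Inside the interval the counts of XiteE-del libraries were distributed differently from those of the other 8 libraries. Fewer lay within bin 6, and more joined bin 6 to the far bins 1 and 2. Bin 6 with itself had 4840 and 4740 CPM in XiteE-del, 5830 and 8080 CPM in XiteE-inv, 6400 and 5890 CPM in XiteC-del, 6170 and 6230 CPM in XiteC-inv, and 6230 and 7670 CPM in WT. XiteE-del was below each of the others, with or without the B101 libraries. Bins 4 and 5 together were also below the other 8, at 874 and 883 CPM in XiteE-del and 890 to 1160 CPM in the others. As a share of the interval counts they did not stand apart, at 3.62% and 3.53% against 3.24% to 3.72%. Bins 1 and 6 together had 898 and 979 CPM in XiteE-del, 728 and 905 in XiteE-inv, 668 and 669 in XiteC-del, 740 and 769 in XiteC-inv, and 623 and 958 in WT. Here XiteE-del was above the 6 other B100 libraries and overlapped the B101 libraries. Bins 2 and 6 gave the same order, with 770 and 807 CPM in XiteE-del, 594 to 643 CPM in the 6 other B100 libraries, and 806 and 803 CPM in the B101 libraries of XiteE-inv and WT.

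The ratio of bins 1 and 6 to bin 6 with itself needs no scaling between libraries. It was 0.186 and 0.207 in XiteE-del, 0.125 and 0.112 in XiteE-inv, 0.104 and 0.114 in XiteC-del, 0.12 and 0.124 in XiteC-inv, and 0.1 and 0.125 in WT, so that the 2 XiteE-del libraries stood above the other 8, the B101 libraries included. For bins 2 and 6 the ratio was 0.159 and 0.17 in XiteE-del and 0.0949 to 0.108 in the other 8. The like ratio one bin further in, of bins 1 and 5 to bin 5 with itself, did not set XiteE-del apart: it was 0.361 and 0.418 there and 0.321 to 0.399 in the other 8. Over the whole interval, counts at least 90 kb apart over counts under 30 kb apart came to 0.231 and 0.252 in XiteE-del and 0.179 to 0.213 in the other 8. This last ratio is not separate from those of bin 6. Bin 6 with itself, 18.9% to 23.7% of the interval counts, enters its lower part, and bins 1 and 6 and bins 2 and 6 enter its upper part. These ratios were chosen after the values had been seen and are given as a description, with no test.

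**Figure D3:**
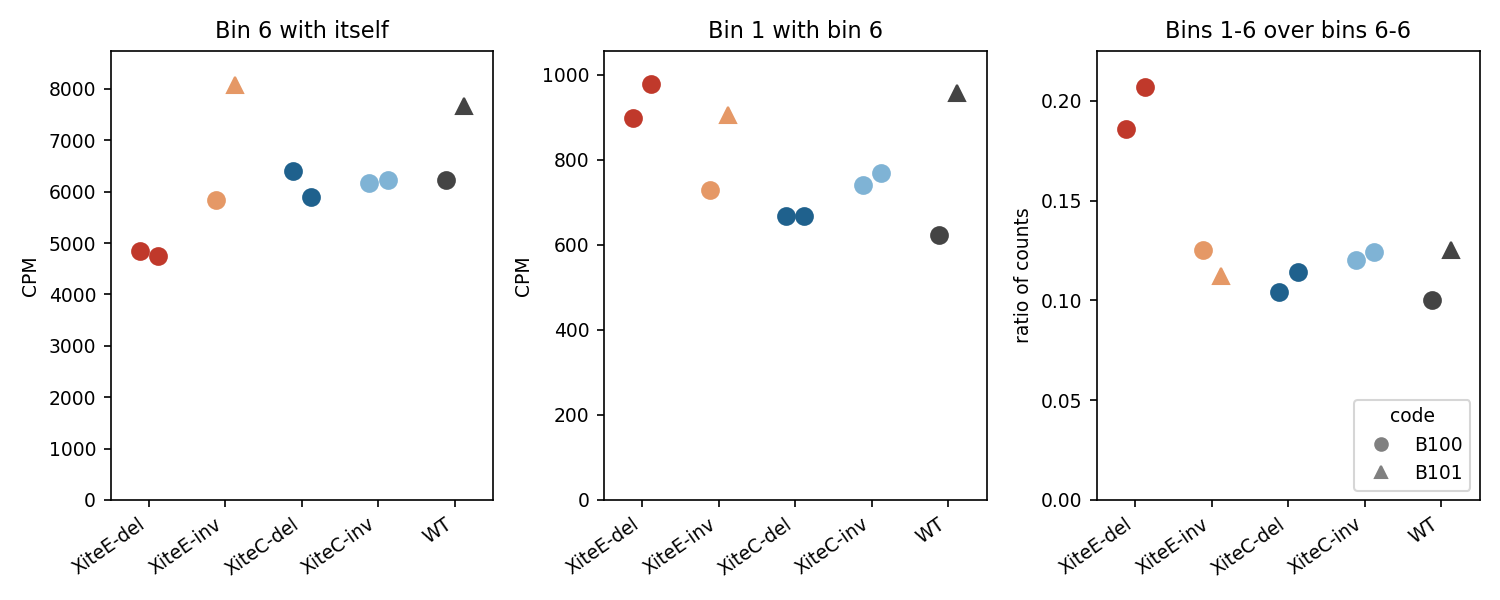
CPM of bin 6 with itself, CPM of bin 1 with bin 6, and the ratio of the 2, for each library by genotype; circles are B100 and triangles B101 libraries. Both XiteE-del points are lowest on the left, at 4840 and 4740 CPM, and highest on the right, at 0.186 and 0.207.

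In the edgeR quasi-likelihood fit over all 10 libraries, which spans 11769 bin pairs, the difference of XiteE-del from WT did not pass. Bin 6 with itself had the lowest log2 fold change of the interval, -0.54 (SE 0.17, adjusted p = 0.978), and bins 1 and 6 the highest, 0.25 (SE 0.21, adjusted p = 0.978). The median over the 21 bin pairs was -0.21, with 18 below 0, beside a median of 0.17 over all bin pairs tested. TMM scaling moved these medians to -0.40 and 0.02. With the code B100 or B101 as a block they were -0.02 and -0.01, and 8 of the 21 were above 0. Without WT replicate 2, a B101 library, they were -0.04 and 0.03, so the lower median depended on that library. At an adjusted p under 0.05 the fit called 0 of the 21, and 0% of all bin pairs. At an unadjusted p under 0.05 it had 1 of the 21, and 3.41% of all. DESeq2 called 0 of the 21, and 0.0935% of all. The comparison and the interval were both chosen with these data known, so the counts are a description.

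The code was then taken into account. In the edgeR fit with it as a block, 3 of the 21 and 794 of all 11769 bin pairs were at an unadjusted p under 0.05. With the code as a block, bin 6 with itself had a log2 fold change of -0.34 in XiteE-del against WT (adjusted p = 0.184), bins 1 and 6 had 0.51 (adjusted p = 0.342) and bins 2 and 6 had 0.39 (adjusted p = 0.541), with 0.0425% of all bin pairs called. Among the B100 libraries, where WT has 1 library and is taken to vary like the others, the values were -0.38 (adjusted p = 0.0403), 0.59 (adjusted p = 0.126) and 0.41 (adjusted p = 0.331); 1 of the 21 was called there, beside 0.0764% of all bin pairs. Scaled by X counts under 180 kb apart with the code as a block, a setting chosen after seeing the data, 1 of the 21 was called, bin 6 with itself at -0.35 (adjusted p = 0.0138), beside 0.051% of all. Over the 23 settings with 30 kb bins the adjusted p of bin 6 with itself ranged from 0.0138 to 1 and its log2 fold change from -0.75 to -0.34, whereas that of bins 1 and 6 ranged from -0.03, without WT replicate 1, to 0.59. The other bin pairs of bin 6 did not follow a simple gradient: with the code as a block, bins 3 and 6 had -0.23, bins 4 and 6 had 0.15 and bins 5 and 6 had 0.04. The 15 bin pairs without bin 6 lay between -0.12 and 0.14.

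**Figure D4:**
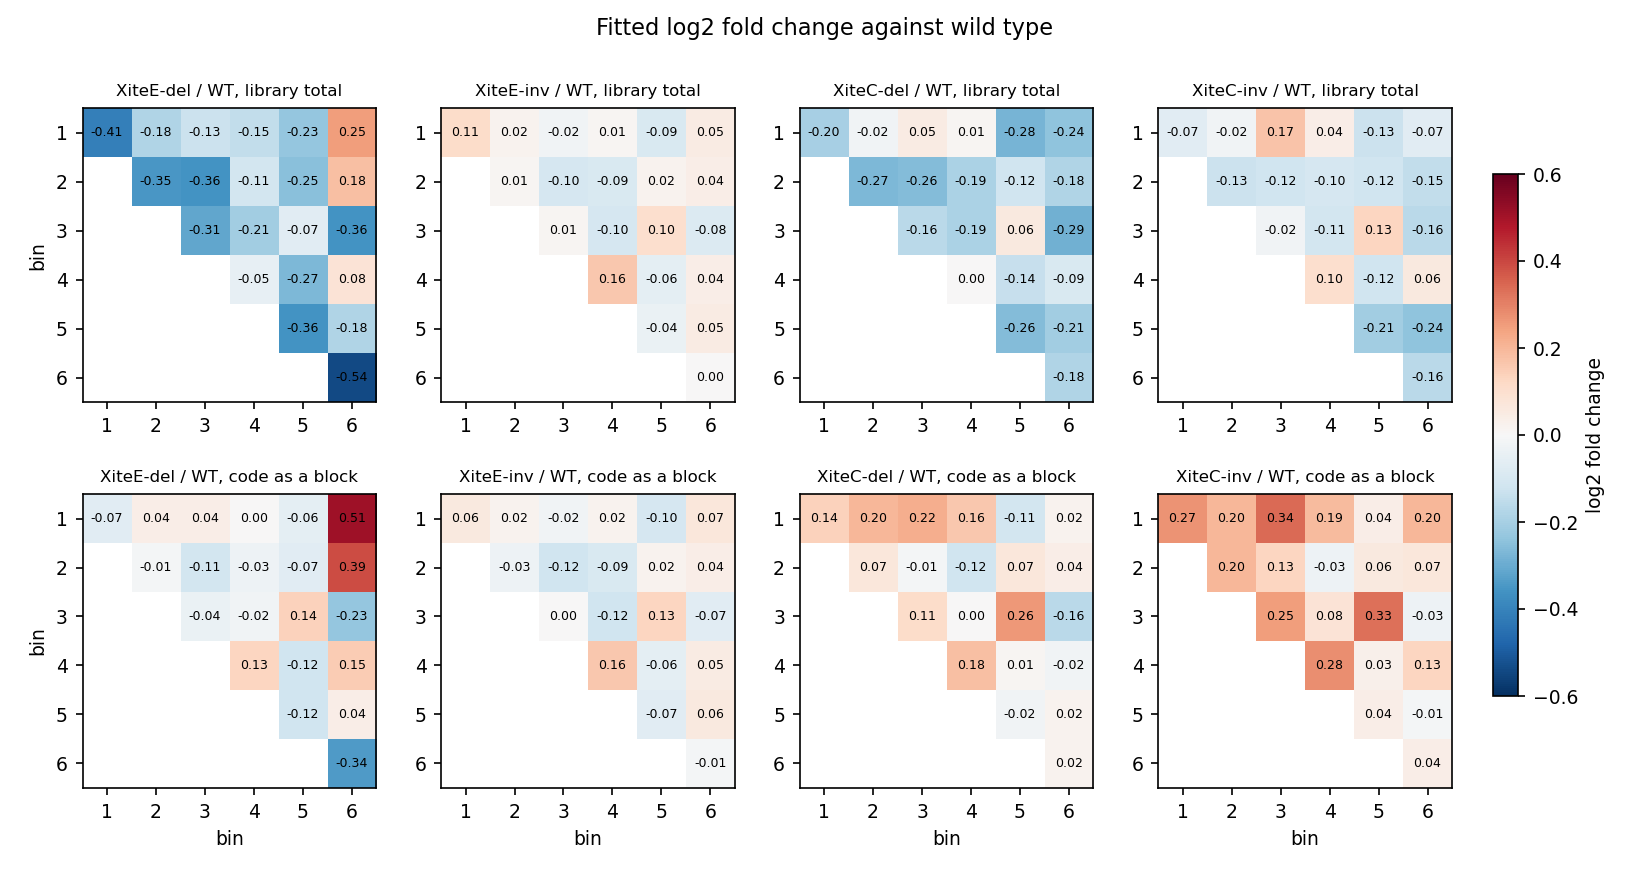
Fitted log2 fold change against WT for the 21 bin pairs of the interval, for the 4 edited genotypes (XiteE left, XiteC right), with library totals as the scale (upper row) and with the code B100 or B101 also fitted as a block (lower row). In the lower row bins 1 and 6 reach 0.51 and bin 6 with itself -0.34 in XiteE-del.

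The lower level within bin 6 was spread over its fragments. Of its 13 fragments, 10 had fewer contacts with the rest of bin 6 in both XiteE-del libraries than in any of the other 8. Each pair enters the sums of both its fragments, so the 13 sums are not separate observations. Bin 6 was singled out after its values were seen, and the like count over the fragments of all bins is not given. The mean of the 2 XiteE-del libraries over that of the 6 other B100 libraries had a median of 0.795 over the 13 fragments, from 0.625 for X:100601155-100601271 to 0.946 for X:100587836-100592173, the fragment farthest from Xite. The fragment next to the border, X:100618507-100618972, had 661 and 627 CPM in XiteE-del and 815 to 1230 CPM in the other 8. The difference held at each separation within the bin: the ratio was 0.735 for the 15 pairs under 5 kb apart, 0.846 for the 11 pairs at 5 to 10 kb and 0.858 for the 16 pairs at 10 to 30 kb. The difference held without the 10 pairs of adjacent fragments, which stay joined where the cut between them fails: bin 6 with itself then had 2910 and 2740 CPM in XiteE-del and 3360 to 4430 CPM in the other 8.

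The higher contact of bin 6 with bin 1 lay toward the Xite side. All 4 fragments of bin 6 within 10 kb of the border, distances chosen after the values were seen, had more contacts with bin 1 in both XiteE-del libraries than in the 6 other B100 libraries. X:100611184-100613218, 7.8 kb from the border, had 78.2 and 90.4 CPM in XiteE-del, against 37.5 to 55.1 CPM in the other 8, and its ratio to the 6 other B100 libraries was 1.94. The border fragment X:100618507-100618972 had 34.7 and 55.1 CPM in XiteE-del and 33.4 and 43.0 CPM in WT, with a ratio of 1.58. At the inner end of bin 6 the ratio was 1.05 for X:100587836-100592173, 1.11 for X:100592174-100597573 and 0.727 for X:100597574-100597675, a fragment of 102 bp with few counts. Over the 13 fragments the median was 1.4, and 6 of them were above the 6 other B100 libraries in both XiteE-del libraries. On the side of bin 1, 5 of 7 fragments were so, and the ratio was 1.18 to 1.51 over the 7. Both counts sum the same pairs of bins 1 and 6, so they are not separate observations, and no like count over other bins is given.

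**Figure D5:**
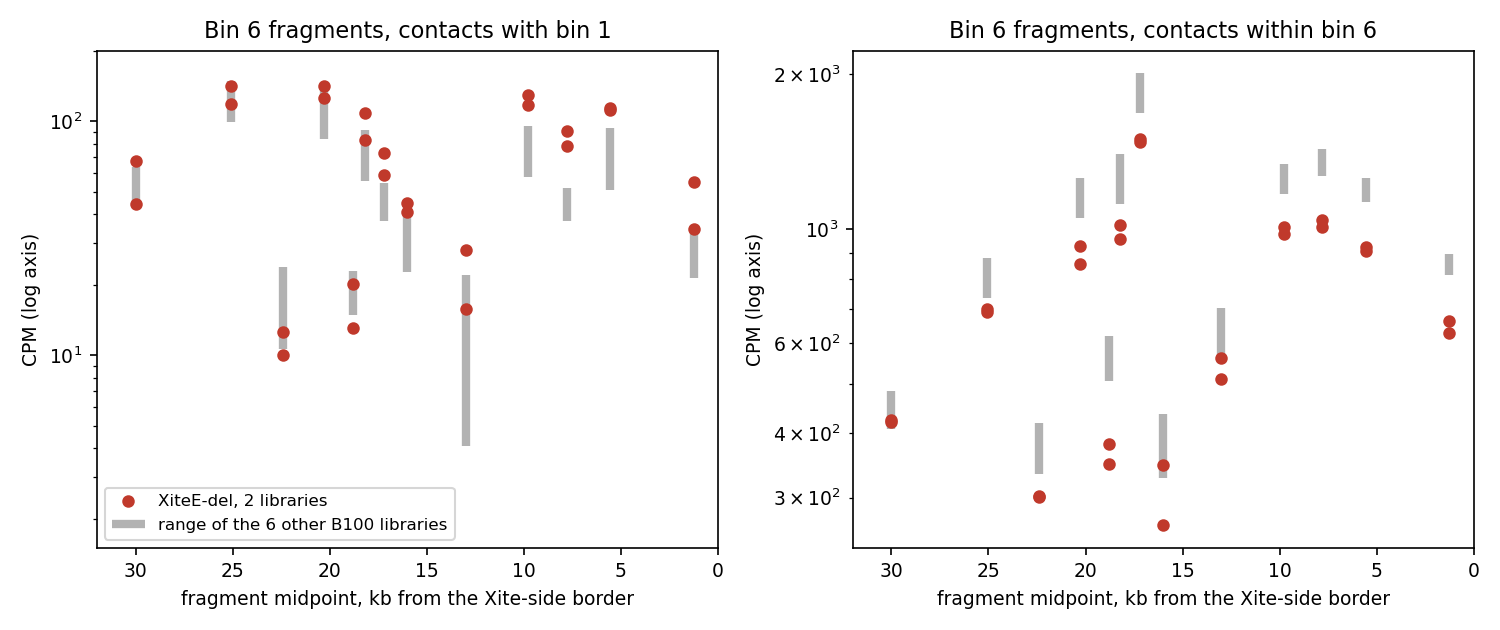
CPM of each bin 6 fragment with bin 1 (left) and within bin 6 (right), on log axes, by distance of its midpoint from the border next to Xite. Points are the 2 XiteE-del libraries and bars the range of the 6 other B100 libraries. On the left the points of the 4 fragments within 10 kb lie above their bars; on the right the points of 10 of the 13 fragments lie below them.

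XiteC-del and XiteE-del were all B100 libraries, so this pair of deletions can be compared free of the code. The lowest fragment of XiteC-del is the next forward primer fragment beyond the low ones of XiteE-del. Bin 6 with itself was higher in XiteC-del than in XiteE-del, with a log2 fold change of 0.36 (SE 0.17), and bins 1 and 6 were lower, at -0.49 (SE 0.21). These were the highest and the lowest of the 21 bin pairs, whose median was 0.10 beside -0.04 over all bin pairs. With the spread of all 10 libraries neither was called (adjusted p = 1 for both; 0% of all bin pairs called), and DESeq2 called 0 of the 21 and 0.0595% of all. At an unadjusted p under 0.05 there was 1 of the 21, beside 2.2% of all. With the code as a block the adjusted p was 0.0151 for bin 6 with itself and 0.0801 for bins 1 and 6, and 0.212% of all bin pairs were called. In the 8 B100 libraries they were 0.0072 and 0.055, with 0.238% called. Fitted on these 4 libraries alone, with 0.264% of all called, they were 0.00541 and 0.0339. Over the 23 settings with 30 kb bins the ranges were 0.00541 to 1 and 0.0339 to 1, and both directions held in each of these 23.

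XiteE-inv and XiteE-del carry an inversion and a deletion that share a name. Bin 6 with itself was 0.54 higher on the log2 scale in XiteE-inv than in XiteE-del (SE 0.17, adjusted p = 0.973). The fit called 0% of all bin pairs and 0 of the 21, DESeq2 called 0.204% of all and 0 of the 21, and the fit had 1 of the 21 at an unadjusted p under 0.05, beside 4.39% of all. In the B100 libraries alone the value was 0.28 (adjusted p = 0.216) and with the code as a block 0.33 (adjusted p = 0.207), with 0% and 0.034% of all bin pairs called. Over the 23 settings with 30 kb bins the adjusted p ranged from 0.0363 to 1. Bins 1 and 6 had -0.20 (SE 0.21), which turned to 0.07 with TMM scaling and 0.11 with DESeq2, and was -0.44 with the code as a block.

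In the other 3 genotypes no bin pair of the interval passed against WT, whether with all libraries, with the code as a block or among the B100 libraries. In XiteE-inv the 21 log2 fold changes ran from -0.10 to 0.16, with a median of 0.01 beside -0.03 over all bin pairs. The highest was bin 4 with itself, at 1140 and 1400 CPM in XiteE-inv and 992 and 1280 CPM in WT (SE 0.17), and the lowest was bins 2 and 3, at 621 and 941 CPM in XiteE-inv and 731 and 937 CPM in WT (SE 0.26). In both the 2 groups overlapped. The edgeR fit called 0 of the 21 and 0% of all bin pairs, with 0 of the 21 and 2.06% of all at an unadjusted p under 0.05, and DESeq2 called 0 of the 21 and 0.0425% of all. With the code as a block the 21 values ran from -0.12 to 0.16, with 0 of the 21 and 5.91% of all at an unadjusted p under 0.05 and 0% of all called. Among the B100 libraries, where each of these 2 groups has 1, they ran from -0.28 to 0.40, with 1 of the 21 and 9.58% of all at an unadjusted p under 0.05 and 0% of all called.

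In XiteC-del the log2 fold changes against WT ran from -0.29 to 0.06, with a median of -0.18 beside 0.12 over all bin pairs. Bins 3 and 6 were lowest, at 390 and 376 CPM in XiteC-del and 409 and 528 CPM in WT (SE 0.18), with the groups apart. Bins 3 and 5 were highest, at 437 and 456 CPM in XiteC-del, between the 338 and 519 CPM of WT (SE 0.23). With the code as a block the 21 values ran from -0.16 to 0.26, with 14 above 0. In that fit 0 of the 21 and 6.27% of all were at an unadjusted p under 0.05, and 0.11% of all were called. The code cannot be told apart from replicate 2 of WT, and the cause of the shift was not tested. Among the B100 libraries they ran from -0.14 to 0.40, with 1 of the 21 and 7.85% of all at an unadjusted p under 0.05 and 0.0934% of all called. The edgeR fit called 0 of the 21 and 0% of all bin pairs, and had 0 of the 21 and 1.64% of all at an unadjusted p under 0.05. DESeq2 called 0 of the 21 and 0% of all.

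In XiteC-inv the values against WT ran from -0.24 to 0.17, with a median of -0.11 beside 0.07 over all bin pairs, and from -0.03 to 0.34 with the code as a block and -0.04 to 0.47 among the B100 libraries. Bins 1 and 3 were highest, at 376 and 418 CPM in XiteC-inv and 316 and 389 CPM in WT (SE 0.22). Bins 5 and 6 were lowest, at 2030 and 2200 CPM in XiteC-inv and 2090 and 2910 CPM in WT (SE 0.19), and the groups overlapped in both. The edgeR fit called 0 of the 21 and 0% of all bin pairs, with 0 of the 21 and 2.37% of all at an unadjusted p under 0.05, and DESeq2 called 0 of the 21 and 0.051% of all. With the code as a block 4 of the 21 were at an unadjusted p under 0.05, beside 6.51% of all, and the lowest adjusted p was 0.582, with 0.263% of all called. Among the B100 libraries there were 3 of the 21, beside 8.11% of all, and the lowest adjusted p was 0.441, again with 0.263% of all called. Bins 3 and 5 were the highest of the 21 among the B100 libraries in each of these 3 genotypes, set against the same single WT library. The 4 comparisons with WT share its 2 libraries, so values that move together between them are not separate observations.

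XiteC-inv and XiteC-del were likewise all B100 libraries. The 21 log2 fold changes of XiteC-inv against XiteC-del ran from -0.03 to 0.17, with a median of 0.09 beside -0.05 over all bin pairs. The highest was bins 1 and 6, at 740 and 769 CPM in XiteC-inv and 668 and 669 CPM in XiteC-del (SE 0.21), groups that did not overlap. The lowest was bins 5 and 6, at 2030 and 2200 CPM in XiteC-inv and 2300 and 2010 CPM in XiteC-del (SE 0.19). The edgeR fit called 0 of the 21 and 0% of all, with 0 of the 21 and 0.833% of all at an unadjusted p under 0.05, and DESeq2 called 0 of the 21 and 0.102% of all.

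At the level of single primer pairs, 551 of the 552 could be fitted, among 153097 in all. In XiteE-del against WT 1 pair of the interval passed, where 0.109% of all pairs did. It joined X:100454927-100455323 in bin 1 to X:100597574-100597675 in bin 6, 142 kb apart. It had 2 and 0 counts in XiteE-del, 57 and 237 in XiteE-inv, 243 and 104 in XiteC-del, 169 and 92 in XiteC-inv, and 134 and 123 in WT (adjusted p = 0.0105). The ratio of the summed counts, scaled by library totals, was 0.00603 of WT, with an exact 95% interval of 0.000727 to 0.022 from counting error. Its direction is opposite to that of bins 1 and 6 as a whole, and its neighbours did not share it. The next forward fragment outward with the same bin 6 fragment had 85 and 300 counts in XiteE-del and 53 and 124 in WT. The same bin 1 fragment with the next reverse fragment toward Xite had 140 and 150 counts in XiteE-del and 103 and 113 in WT.

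In the other genotypes no pair of the interval passed against WT: 0 of 551 in XiteE-inv, with 0.00914% called of all pairs, 0 in XiteC-del, with 0.079%, and 0 in XiteC-inv, with 0.0209%. At an unadjusted p under 0.05 edgeR had 33 of the 551 in XiteE-del, 5 in XiteE-inv, 2 in XiteC-del and 3 in XiteC-inv, which is 5.99%, 0.907%, 0.363% and 0.544%. Over all primer pairs the shares were 3.57%, 2.1%, 1.52% and 1.77%. The pair that passed in XiteE-del also passed in XiteE-inv against XiteE-del (adjusted p = 0.00906), where 0.114% of all pairs were called, and in XiteC-del against XiteE-del (adjusted p = 0.00471), where 0.152% were; these comparisons share the XiteE-del libraries. In XiteC-inv against XiteC-del 0 of 551 passed, beside 0.0666% of all. At an unadjusted p under 0.05 these 3 comparisons had 27, 16 and 1 of the 551, beside 4.05%, 2.52% and 0.871% of all pairs. DESeq2 was not run on single pairs. The biological coefficient of variation, a common value over all pairs fitted, was 142% for primer pairs and 62.1% for bin pairs. Neither value is that of the interval alone, and the smallest change that could pass in 1 primer pair was not worked out. The pair that passed in XiteE-del against WT had a log2 fold change of -7.11 (SE 1.59).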

How the data were processed

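For 5C the authors deposited unnormalized counts, 1 for each forward and reverse primer pair that was seen, and the submitters' processing notes name Bowtie2 and mm9. The step from reads to pairs is not given in the sources read. The deposited primer lists place the fragments on mm9; these positions are no measurement (unit: other) and are printed counted from 1. The deposited RNA table holds raw counts per gene, with STAR, edgeR and mm9 named in the submitters' processing notes; 8 sample columns of it were not used. Of 73 samples, the 10 of this 5C set and 4 wild-type RNA libraries were used, and 59 were not analysed here.

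Counts were summed over 30 kb bins by fragment midpoint. All bin pairs whose mean reached 10 counts went into 1 edgeR 4.0.16 quasi-likelihood fit (R 4.3.3) with 5 group means over 10 libraries, the library total as offset and Benjamini-Hochberg adjustment over all pairs tested (threshold 0.05, residual degrees of freedom 5). DESeq2 1.42.0 was the alternative tool, and other alternatives are named in the closing section. CPM is counts scaled to a library total of 1000000, given as mean ± SD. Samples were grouped by title.

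The interval, bins, tests and named members were chosen with earlier results of these data known. Named were the 3 strongest pairs of different bins in WT, the highest and lowest log2 fold change of each comparison and any called pair, the 5 strongest wild-type primer pairs at least 30 kb apart, and the 2 highest and 2 lowest fragments; bins 2 and 6 and the fragments of bins 1 and 6 were added after their values were seen. The replicate numbers share no stated source and do not pair the libraries.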

Additional observations from a re-analysis of the deposited data

How the results depend on the processing

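The count of called bin pairs of the interval was 0 in all 7 comparisons, and leaving out 1 library at a time kept it from 0 to 0. It was also 0 in each with TMM scaling, DESeq2, scaling by X pairs, by X pairs under 180 kb apart or without pairs of the edited bin, no filter on counts, a mean of at least 50 counts, and bins of 20 or 60 kb. Beside each other count stands the share called over all features. It became 1 for XiteE-del against WT with B100 libraries only (0.0764%), with primer pairs as the unit (0.109%), and with scaling by X pairs under 180 kb apart, here short-range scaling, together with the code as a block (0.051%). It became 1 for XiteE-inv against XiteE-del with primer pairs (0.114%) and with short-range scaling and the block (0.051%). For XiteC-del against XiteE-del it became 2 with only the groups compared (0.264%), 1 with B100 libraries only (0.238%), 1 with the code as a block (0.212%), 1 with primer pairs (0.152%), and 2 with short-range scaling and the block (0.212%). The last 2 settings were chosen after seeing the data. The replicate block called 0 in each of the 7 comparisons. Same-numbered libraries of different groups correlated from -0.08 to 0.11, except for XiteE-inv and WT, at 0.445. In these 2 groups the replicate number coincides with the code, so this value cannot be told apart from the code. The numbers were not taken as pairs.

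The log2 ratio of the interval total, leaving out 1 library at a time, ranged from -0.45 to -0.09 in XiteE-del, -0.25 to 0.22 in XiteE-inv, -0.35 to 0.01 in XiteC-del and -0.28 to 0.07 in XiteC-inv against WT, from 0.03 to 0.51 in XiteE-inv and 0.04 to 0.17 in XiteC-del against XiteE-del, and from 0.00 to 0.12 in XiteC-inv against XiteC-del.

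Some named bin pairs turned sign, none of them called. Bins 3 and 5 in XiteC-del against WT became -0.13 with TMM and -0.14 with DESeq2, and ranged from -0.22 (without WT replicate 1) to 0.40 (without WT replicate 2) leaving out 1 library. Bins 5 and 6 in XiteC-inv against WT became 0.02 with B100 libraries only, and ranged from -0.46 (without WT replicate 1) to 0.02 (without WT replicate 2). Bins 5 and 6 in XiteC-inv against XiteC-del became 0.02 with TMM and 0.03 with DESeq2, and ranged from -0.12 (without XiteC-del replicate 2) to 0.07 (without XiteC-del replicate 1). Bins 1 and 6 in XiteE-del against WT ranged from -0.03 (without WT replicate 1) to 0.59 (without WT replicate 2). Bins 2 and 3 in XiteE-inv against WT became 0.01 with TMM and 0.03 with DESeq2, and ranged from -0.43 (without XiteE-inv replicate 2) to 0.17 (without XiteE-inv replicate 1). Bin 4 with itself in that comparison ranged from -0.02 (without WT replicate 1) to 0.35 (without WT replicate 2). Bins 1 and 6 in XiteE-inv against XiteE-del became 0.07 with TMM and 0.11 with DESeq2. The cause was not tested.

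With 2 libraries a group, no bin pair of the interval passed after adjustment in the fit of all libraries, which does not show that they were alike. The biological coefficient of variation of 62.1% is a common value over all bin pairs fitted, not that of the interval. For the 21 bin pairs the SE of the log2 fold change was 0.16 to 0.26. The code B101 cannot be told apart from replicate 2 in XiteE-inv and WT.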

Other observations

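Genes of the Tsix domain were measured by RNA-seq in 4 wild-type libraries from other cultures, 2 that the labels set beside the 40kb allele and 2 beside the 70kb allele, with 37931578 to 41659773 counts each. Chic1 (ENSMUSG00000031327.9) had 34.1 and 29.2 CPM in the 40kb set and 28.0 and 25.2 CPM in the 70kb set. Cdx4 (ENSMUSG00000031326.2) had 2.3 and 3.03 CPM in the 40kb set and 0.463 and 1.54 CPM in the 70kb set, and Tsx (ENSMUSG00000031329.4) had 0.422 to 0.574 CPM over the 4 libraries, from 16 to 23 counts. Nap1l2, which the gene table places beyond Cdx4 on the side away from Xite, had 2.8 to 3.85 CPM. Levels are not scaled by gene length and are not compared between genes. Linx was not analysed here. Markers of embryonic stem cells were high in all 4, with Pou5f1, a transcription factor that keeps these cells undifferentiated, at 885 to 1210 CPM and Nanog, another, at 325 to 440 CPM. The 5C libraries were not matched to these RNA libraries, so no relation between contacts and expression was tested.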
